A study of Homo sapiens with 9 samples.

Results

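ATP-binding cassette (ABC) transporters are membrane proteins that use ATP to move lipids, metabolites, peptides and drugs across cell membranes. The family was taken as every protein-coding row of the count files whose symbol is ABC followed by a subfamily letter from A to G and a number. That gave 46 rows with 45 symbols among 60683 genes, since ABCF2 has 2 rows, and family members carried under other symbols (TAP1, TAP2 and CFTR) stand apart. Subfamilies A to G held 12, 9, 11, 4, 1, 4 and 5 rows. Full transporters carry a pair of nucleotide-binding domains and a pair of membrane domains, while shorter members carry one of each and pair up. Subfamilies E and F have nucleotide-binding domains without membrane domains and act on ribosomes. ABCB1, ABCC1 to ABCC5 and ABCG2 are pumps of the plasma membrane that export drugs and conjugated metabolites, and in kidney and liver several of them carry organic anions and toxins out of the cell.

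Messenger RNA had been sequenced from human cells labelled HCT 15, a line derived from a colorectal adenocarcinoma. Of 9 libraries, 3 were from cells kept in oxaliplatin, a DNA-binding platinum drug, 3 from cells kept in sorafenib, an inhibitor of RAF and several receptor tyrosine kinases, and 3 from cells with no treatment. All groups carry the genotype label WT and share medium and serum. Per the labels, oxaliplatin started at 0.5 µM for 7 days, went up in steps of 1, 2 and 4 µM from day 10 until day 30, and cells stayed at 4 µM afterwards, while sorafenib was raised in a like way at doses that the labels do not give. The treated cells are populations selected in drug, so a change of expression and a change in which cells are present cannot be told apart, nor in bulk RNA can fewer cells of a type and less RNA per cell. Each group has 1 library code in its titles and nothing states that its libraries came from separate cultures, so the p-values rest on variation among libraries that could be purely technical.

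Total counts were 15797076 to 20936536 per oxaliplatin library, 17489612 to 18918545 per sorafenib library and 17138210 to 19780645 per untreated library. Markers of the labelled tissue were nearly absent: all 12 colorectal markers had a median under 1 CPM (counts scaled to library size) and 7 had 0 counts in every library, among them CDX2, CDH1, KRT20 and CEACAM5. Summed over that list the level was 0.365 to 1.14 CPM in oxaliplatin, 0.681 to 1.41 CPM in sorafenib and 1.64 to 8.59 CPM in untreated libraries. At least 10 CPM in the median was reached by 6 of 10 kidney epithelial and kidney carcinoma markers. Their sum was 715 to 773 CPM in oxaliplatin, 637 to 711 CPM in sorafenib and 423 to 602 CPM in untreated libraries. Within that list 5 markers were higher and LRP2 lower in oxaliplatin than in untreated libraries (-1.52 on the log2 scale, adjusted p = 0.0494), out of 9 tested, and 1 was higher in sorafenib. Of all genes tested, 16.2% were higher and 15.5% lower in oxaliplatin than in untreated libraries, and 2.82% and 1.97% in sorafenib. Markers of stroma and endothelium summed to 16.6 to 24.7 CPM in oxaliplatin, 4.13 to 4.94 CPM in sorafenib and 11.4 to 48.9 CPM in untreated libraries, and both that could be tested, COL1A1 and PDGFRB, were lower in sorafenib (-4.22 and -1.22, adjusted p = 0.0235 and 0.012). Liver markers summed to 20.3 to 24.1 CPM in oxaliplatin, 13.0 to 18.3 CPM in sorafenib and 21.3 to 27.1 CPM in untreated libraries, and immune markers overlapped. Several of these sums move with the groups, and their part in the results on transporters was not tested. Untreated 1 correlated at 0.972 with sorafenib 1 and at 0.967 and 0.968 with untreated 2 and 3 over log2 CPM of all genes tested, which are not independent replicates. Of the 6 pumps that could be tested, 6 were highest in untreated 1 among the untreated libraries, so results without it are given where they differ.

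Of the 46 rows, 28 passed the filter on low counts and 18 did not. The 18 had at most 12 counts in any library, or 0.550 CPM, and 8 of them had 0 counts in every library: ABCA4, the retinoid transporter of photoreceptors, ABCA8, ABCA9, ABCA13, ABCB5, the bile salt export pump ABCB11, ABCC12 and the peroxisomal ABCD2. The others were ABCA6, ABCA10, the phosphatidylcholine exporter ABCB4, the sulfonylurea receptor ABCC8, ABCC11, ABCG1, ABCG2, ABCG4, ABCG5 and ABCG8. All 5 members of subfamily G, which in other tissues export sterols and drugs, were in this set. Where no read was counted, the limit of 3 counts stands at 0.143 to 0.190 CPM by library, for counting error only.

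Among the rows tested, 19 had a median of at least 10 CPM and 5 of at least 100 CPM. Compared per kilobase of merged exons, averaged over the 9 libraries, ABCC3 stood at 40.2 and ABCC4 at 32.0 CPM per kb, followed by the ribosome recycling factor ABCE1 at 25.3, ABCC2 at 24.6, ABCF2 at 22.6 and ABCB1 at 18.2 CPM per kb. Of the merged exons of this ABCF2 row, 45.8% are shared with a same-strand 2nd row of the symbol, so its level is uncertain. The order differed by group: ABCE1 and ABCF2, at 26.3 and 24.7 CPM per kb in untreated libraries, stood there above ABCC4 at 23.8 and ABCC2 at 18.9, and under ABCC3 at 27.5. In oxaliplatin libraries ABCC3, ABCC4 and ABCC2 came first, at 42.7, 38.7 and 30.6 CPM per kb. Over the 9 libraries, the mitochondrial short transporter ABCB10 and the peroxisomal ABCD3 followed at 13.2 and 12.1 CPM per kb. At the low end, ABCF1, a factor of translation initiation, had 0.280 and ABCA5 0.0331 CPM per kb. Whether reads of ABCF1 were lost in mapping was not tested, so its level is uncertain.

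**Figure D1:**
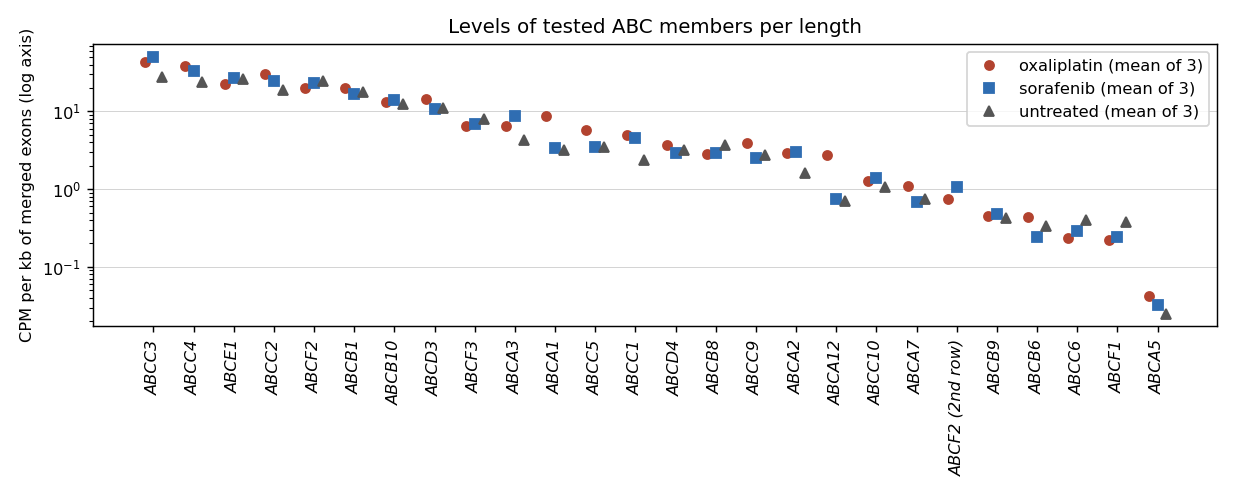
Mean level in CPM per kilobase of merged exons (log axis) of the tested rows reported here, ordered by the mean of 9 libraries; circles are oxaliplatin, squares sorafenib and triangles untreated libraries (3 each). ABCC3, ABCC4, ABCE1 and ABCC2 come first in this mean, while in untreated libraries ABCE1 and ABCF2 lie above ABCC4 and ABCC2, and a 2nd row of ABCF2 has no point in untreated, where it had 0 counts.

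For 35 of the 45 symbols a RefSeq promoter entry (GRCh38.p14) was at hand. The 250 bases before the start of 4 members higher in oxaliplatin are shown because they show how unlike the promoters of members that moved together are. Capitals mark matches, on either strand and with overlaps allowed, to 6 motifs. They are the E-box CACGTG, the GC box GGGCGG, the CCAAT box, the TATA box TATAAA, the core of the antioxidant response element TGACNNNGC, and the DR4 element of liver X receptors, a direct repeat with 4 bases between.
ABCA1 (chr9:104928156-104928405, minus strand): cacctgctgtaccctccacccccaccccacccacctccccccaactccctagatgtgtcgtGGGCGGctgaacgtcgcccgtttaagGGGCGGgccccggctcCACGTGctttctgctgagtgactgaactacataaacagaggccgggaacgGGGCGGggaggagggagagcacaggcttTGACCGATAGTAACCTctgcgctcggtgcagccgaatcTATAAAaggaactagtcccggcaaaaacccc
ABCC2 (chr10:99782390-99782639, plus strand): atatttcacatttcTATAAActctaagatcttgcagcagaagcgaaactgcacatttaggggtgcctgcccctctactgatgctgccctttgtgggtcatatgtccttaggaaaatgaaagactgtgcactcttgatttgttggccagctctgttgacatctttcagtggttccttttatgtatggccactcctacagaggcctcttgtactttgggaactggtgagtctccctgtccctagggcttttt
ABCC4 (chr13:95301452-95301701, minus strand): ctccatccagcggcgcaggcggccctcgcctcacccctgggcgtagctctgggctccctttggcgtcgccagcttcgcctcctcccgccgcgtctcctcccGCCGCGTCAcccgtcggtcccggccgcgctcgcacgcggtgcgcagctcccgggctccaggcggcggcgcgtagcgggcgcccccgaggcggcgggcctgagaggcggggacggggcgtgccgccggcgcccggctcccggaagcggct
ABCC5 (chr3:184017885-184018134, minus strand): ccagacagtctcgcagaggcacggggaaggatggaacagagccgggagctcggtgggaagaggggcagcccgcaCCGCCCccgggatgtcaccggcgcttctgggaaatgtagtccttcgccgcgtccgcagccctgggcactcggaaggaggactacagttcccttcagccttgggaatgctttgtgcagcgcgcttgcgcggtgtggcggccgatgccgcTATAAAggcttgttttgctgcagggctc

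The G and C content of these windows was 61.6% for ABCA1, 45.6% for ABCC2, 80.4% for ABCC4 and 64.8% for ABCC5, and they held 16, 1, 42 and 21 CG dinucleotides. ABCA1 had the DR4 pattern starting at -69, and 28 of 35116 promoters in the table (0.08%) held it. The pattern as searched was a loosened form that left 1 base of each repeat open. The repeats in ABCA1 differ from each other at both open positions, so a strict direct repeat would not have matched there. Since the open positions are those where ABCA1 departs, neither its match nor the share of 0.08% measures how rare such a site is. The letters TATAAA stood at -31 in ABCA1 and -28 in ABCC5, but in ABCC2 at -236, far from the start. Of the 10 members higher in oxaliplatin that had an entry, 6 held the GC box, 3 the letters TATAAA at any position and 3 the antioxidant core. The E-box was held by 1, the CCAAT box by 1 and the DR4 pattern by 1. The shares over all 35116 promoters were 42.6%, 10.7%, 10.9%, 6.35%, 32.0% and 0.08%. The windows precede the RefSeq starts, which for ABCC4 and ABCC5 lie inside the genes as the count files give them. A match describes these letters and is no evidence of binding.

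In cells adapted to oxaliplatin, 12 of the 28 tested rows were higher than in untreated cells and 0 were lower. They were the lipid transporters ABCA1, ABCA2, ABCA3, ABCA7 and ABCA12, the pumps ABCC1 to ABCC5, the potassium channel regulator ABCC9 and the peroxisomal ABCD3. The background among all 16159 genes tested was 31.7% called, with 16.2% higher and 15.5% lower (edgeR's quasi-likelihood test, Benjamini-Hochberg adjusted p under 0.05, as for every gene here), so the share of members higher exceeded the background and the share lower lay under it. The members' median log2 fold change was 0.38, against 0.02 over all genes. All 3 oxaliplatin values lay above all 3 untreated ones for 14 members and below for 2, against 24.9% and 23.2% of all genes (48.1% together). An unadjusted p under 0.05 was reached by 16 members, and DESeq2 called 13 higher and 2 lower. The 14, the 16 and the 13 include a 2nd row of ABCF2 that has 0 counts in untreated libraries and passed the filter only through the drug libraries, so it had to lie above. Length moved with this result: the 12 members were all among the 18 that fall in the longest of 4 equal length classes of tested genes (6.91 kb of merged exons or more). In that class 32.6% of all genes were higher and the median was 0.33, while 0 of 10 shorter members were higher, where the other classes had 7.52 to 16.4%. With a correction per library for G and C content and length, 10 members were higher and 1 lower.

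Summed over the family, the level was 2033 ± 90.2 CPM in oxaliplatin, 1888 ± 109 CPM in sorafenib and 1493 ± 148 CPM in untreated libraries (mean ± SD, n = 3 each), which is dominated by subfamily C. Subfamily A stood at 226, 223 and 212 CPM in oxaliplatin, 137, 169.6 and 155 CPM in sorafenib and 106, 95.4 and 102 CPM in untreated libraries 1 to 3. Subfamily C had 1169, 1180.1 and 1086 CPM in oxaliplatin, 993, 1135 and 1115 CPM in sorafenib and 863, 627 and 663 CPM in untreated libraries. In both subfamilies the libraries of either drug lay above all untreated ones. Subfamily D was also higher in every oxaliplatin library, at 148 to 166 CPM in oxaliplatin and 118 to 129 CPM in untreated libraries. Most of that sum was ABCD3, with a mean of 109.55 CPM beside 157.68 CPM for the subfamily in oxaliplatin. With the correction for G and C content and length, the log2 fold change of ABCD3 was -0.002. Subfamily F was lower in every oxaliplatin library, with 116 to 122 CPM in oxaliplatin and 134 to 153 CPM in untreated libraries. In sorafenib D and F overlapped untreated, as B and E did in both drugs.

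**Figure D2:**
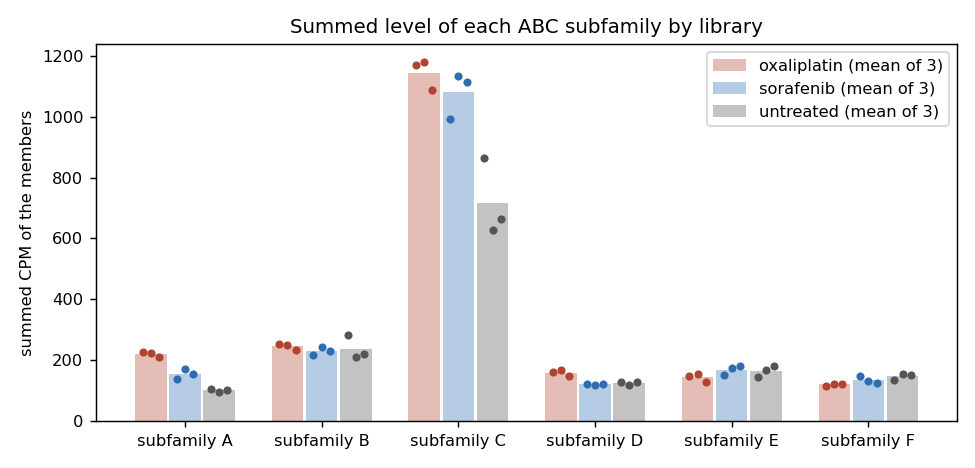
Summed CPM of the members of subfamilies A to F; bars are means of 3 libraries, points single libraries, with oxaliplatin left, sorafenib middle and untreated right. Subfamily C stood at 1086 to 1180.1 CPM in oxaliplatin, 993 to 1135 CPM in sorafenib and 627 to 863 CPM in untreated libraries; subfamily G, under 1 CPM, is not drawn.

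Of the 7 efflux pumps, 5 rose in oxaliplatin. ABCC1 (multidrug resistance-associated protein 1, ENSG00000103222, chr16:15949577-16143074), which exports glutathione and other organic anion conjugates, had 41.2, 29.4 and 41.7 CPM in oxaliplatin and 21.9, 13.3 and 18.0 CPM in untreated libraries 1 to 3, which is 1.08 ± 0.23 on the log2 scale (fold change ± SE, as in later brackets; adjusted p = 0.00846). The groups did not overlap. ABCC2 (ENSG00000023839, chr10:99782640-99852594), an apical exporter of glutathione and glucuronide conjugates that also carries platinum conjugates, had 253, 247 and 219 CPM in oxaliplatin and 181, 119 and 142 CPM in untreated libraries (0.70 ± 0.16). ABCC3 (ENSG00000108846, chr17:50634777-50692253), the basolateral exporter of bile salts and glucuronides and the pump with the highest level, had 411, 426 and 395 CPM in oxaliplatin and 327, 234 and 232 CPM in untreated libraries (0.64 ± 0.14, adjusted p = 0.00817).

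ABCC4 (ENSG00000125257, chr13:95019835-95301475), which exports cyclic nucleotides, prostaglandins and nucleotide drugs, had 337, 359.6 and 306 CPM in oxaliplatin and 246, 185 and 185 CPM in untreated libraries (0.70 ± 0.14). ABCC5 (ENSG00000114770, chr3:183919934-184017939), another cyclic nucleotide exporter, had 67.4, 63.3 and 67.2 CPM in oxaliplatin and 46.1, 34.2 and 38.0 CPM in untreated libraries (0.74 ± 0.14, adjusted p = 0.00514). For all 5 of these pumps the lowest oxaliplatin library lay above the highest untreated one, and each call held under all 18 alternatives. With the correction for G and C content and length the log2 fold changes of ABCC2, ABCC4 and ABCC5 were 0.45, 0.38 and 0.47, and all 3 were still called (adjusted p = 0.0225, 0.0199 and 0.00741, in ranges over 18 alternatives of 0.00117 to 0.0438, 0.00015 to 0.0419 and 6.67e-05 to 0.0246).

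ABCB1 (P-glycoprotein, ENSG00000085563, chr7:87503017-87713323), the exporter of many uncharged and cationic drugs, had 122, 120.0 and 108 CPM in oxaliplatin and 146, 78.0 and 83.0 CPM in untreated libraries. Untreated 1 lay above all other libraries, and the log2 fold change of 0.19 ± 0.21 was not called (adjusted p = 0.512). Without untreated 1 it was 0.54 and was called (adjusted p = 0.00928, within a range of 0.00928 to 0.95 over 18 alternatives). ABCG2 (breast cancer resistance protein, ENSG00000118777, chr4:88090150-88231628) had 1 count in 1 library of each group and 0 in the other 6 libraries, below the level that these depths can compare. ABCB1 and its neighbour ABCB4, 22581 bases apart on the same strand, differed in level: ABCB4 had 3 counts in all 9 libraries together.

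**Figure D3:**
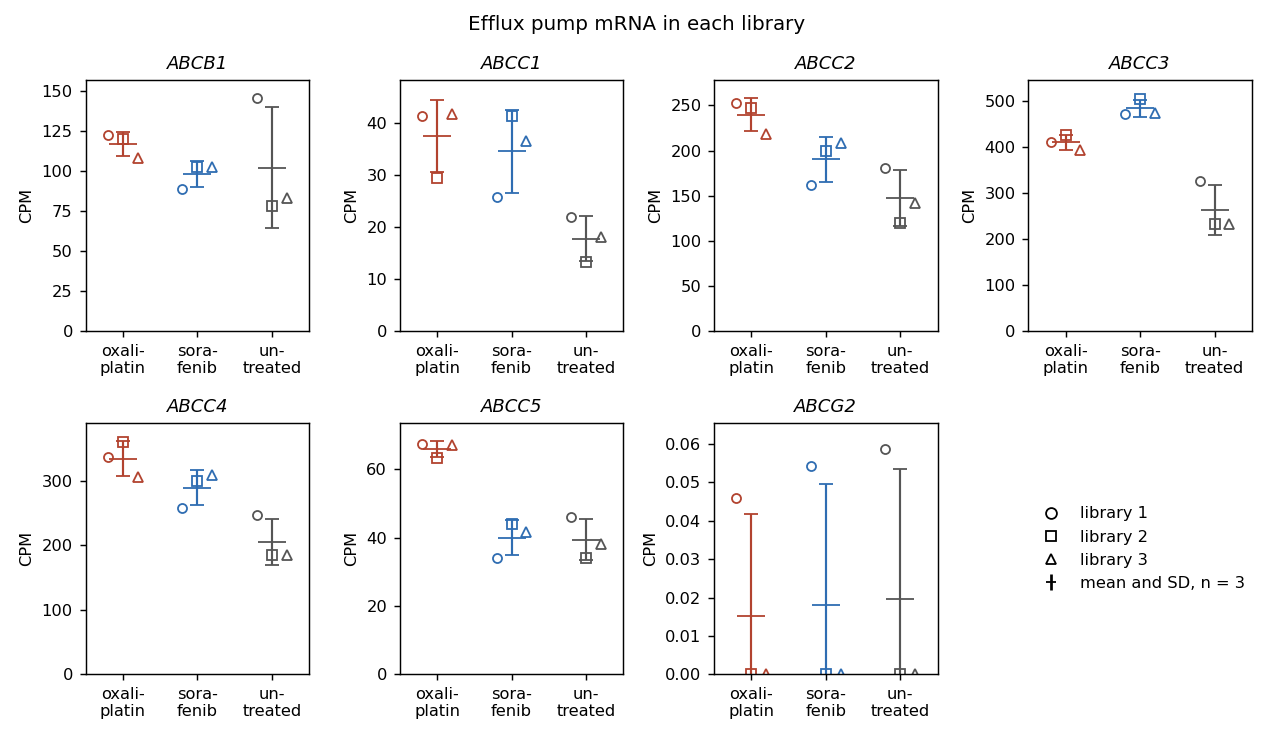
CPM of the 7 named efflux pumps in each library (linear axes from 0), with oxaliplatin left, sorafenib middle and untreated right; symbols mark libraries 1 to 3, and the cross with bars is the mean and SD of 3. ABCC1 to ABCC5 are higher in every oxaliplatin library than in every untreated one, ABCB1 in untreated 1 stands at 146 CPM against 78.0 and 83.0 CPM in untreated 2 and 3, and each nonzero point of ABCG2 is 1 count.

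In subfamily A, whose members move lipids, ABCA12 and ABCA1 had the largest called increases of the family. ABCA12 (ENSG00000144452, chr2:214931542-215138626), which carries glucosylceramides in keratinocytes, had 27.3, 27.7 and 23.8 CPM in oxaliplatin and 7.63, 5.20 and 6.79 CPM in untreated libraries, a log2 fold change of 2.01 ± 0.28 (adjusted p = 0.00177). ABCA1 (ENSG00000165029, chr9:104781006-104928155), which hands cholesterol and phospholipid to apolipoprotein A-I, had 99.0, 108 and 90.2 CPM in oxaliplatin and 32.1, 35.8 and 40.3 CPM in untreated libraries (1.46 ± 0.16, adjusted p = 0.00106). Neither group pair overlapped, and both calls held under all 18 alternatives.

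ABCA3 (ENSG00000167972, chr16:2275881-2340746), the surfactant lipid transporter of lamellar bodies, had 52.5, 47.2 and 52.0 CPM in oxaliplatin and 33.3, 33.4 and 32.7 CPM in untreated libraries (0.61 ± 0.10, adjusted p = 0.00287). ABCA2, a lysosomal lipid transporter, had 36.3, 29.9 and 35.7 CPM in oxaliplatin and 25.5, 14.6 and 15.2 CPM in untreated libraries (0.88 ± 0.21, adjusted p = 0.012). ABCA7, a phospholipid transporter linked to phagocytosis, had 9.58, 9.28 and 8.75 CPM in oxaliplatin and 6.63, 6.14 and 5.78 CPM in untreated libraries (0.57 ± 0.19, adjusted p = 0.0452). For these 3 genes the groups did not overlap, with the widest spread in untreated ABCA2. The call of ABCA7 ended without untreated 1, 2 or 3 (adjusted p = 0.054, 0.117 and 0.128), oxaliplatin 1, 2 or 3 (0.124, 0.0988 and 0.0585) or sorafenib 1 (0.0508), with no filter on low counts (0.0828) and with the correction for G and C content and length (0.0505), in a range of 0.0263 to 0.128. It also ended with a block for the replicate number, alone or with that correction (0.0686 and 0.0641). ABCA5, at 0.733, 0.325 and 0.608 CPM in oxaliplatin and 0.293, 0.111 and 0.583 CPM in untreated libraries, was not called (adjusted p = 0.334). ABCA5 is the one tested member of the run of ABCA8, ABCA9, ABCA6, ABCA10 and ABCA5 on chromosome 17, and its exons overlap ABCA10 on the same strand over 318 bases.

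**Figure D4:**
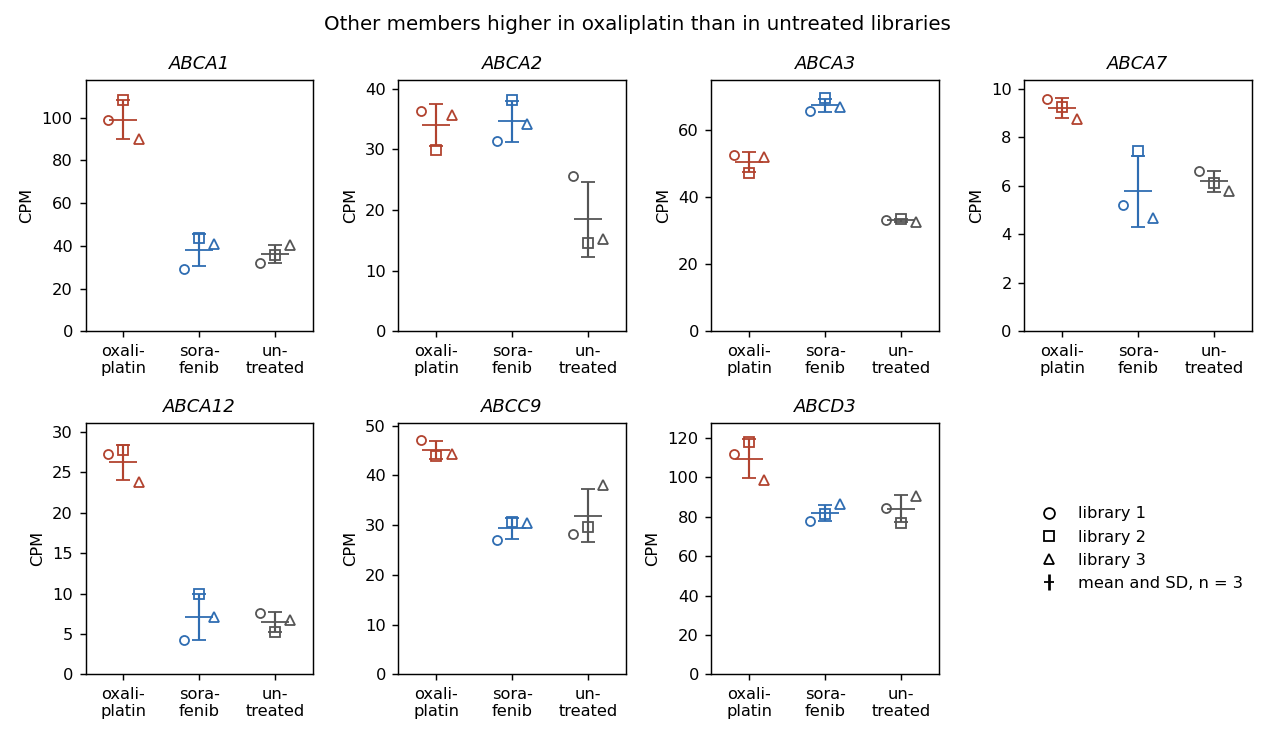
CPM per library of the other 7 members called higher in oxaliplatin than in untreated libraries (linear axes from 0), with oxaliplatin left, sorafenib middle and untreated right; symbols mark libraries 1 to 3, and the cross with bars is the mean and SD of 3. ABCA1, ABCA7, ABCA12, ABCC9 and ABCD3 lie above both other groups in every oxaliplatin library, while ABCA2 and ABCA3 are also above untreated in sorafenib. With the correction for G and C content and length, ABCC9 and ABCD3 had log2 fold changes of -0.0285 and -0.002 in oxaliplatin against untreated.

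The other members of subfamily C differed among themselves. ABCC9 (the sulfonylurea receptor SUR2, ENSG00000069431, chr12:21797401-21942529), which forms ATP-sensitive potassium channels with pore subunits and pumps no drug, had 47.1, 43.8 and 44.3 CPM in oxaliplatin and 28.2, 29.6 and 38.0 CPM in untreated libraries (0.50 ± 0.13, adjusted p = 0.0195). Its groups did not overlap, but its transcript is poor in G and C (38.49%). With the correction for G and C content and length the log2 fold change was -0.03 (adjusted p = 0.887), and the call also ended without untreated 2 (0.0772) or oxaliplatin 1 (0.0709), in a range of 0.0082 to 0.909. ABCC6 (ENSG00000091262, chr16:16148928-16223522), needed for release of ATP from liver cells and mutated in pseudoxanthoma elasticum, had 2.29, 1.03 and 2.07 CPM in oxaliplatin and 3.34, 3.54 and 2.17 CPM in untreated libraries (-0.74 ± 0.32, adjusted p = 0.0987). It lies 5853 bases from ABCC1, on the opposite strand. Its counts are uncertain, since its near-identical pseudogene copies ABCC6P1 and ABCC6P2 had 703 and 43 counts over the 9 libraries and ABCC6 had 103 in oxaliplatin, 121 in sorafenib and 162 in untreated libraries. ABCC10, a broad multidrug exporter, stood at 0.25 ± 0.17 (adjusted p = 0.29).

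In subfamily B 0 of 6 tested members were called by edgeR in any comparison, and 1 in each comparison had an unadjusted p under 0.05. ABCB8 (ENSG00000197150, chr7:151028422-151047782), a short transporter of the mitochondrial inner membrane, had 28.5, 24.1 and 26.1 CPM in oxaliplatin and 27.8, 37.3 and 38.3 CPM in untreated libraries (-0.39 ± 0.14, adjusted p = 0.0582). Without untreated 1 it was -0.53 and was called (adjusted p = 0.0119), and DESeq2 called it (0.0456), in a range of 0.0119 to 0.177. ABCB10 (ENSG00000135776, chr1:229516582-229558707), of the same membrane and linked to heme synthesis, had 55.0, 59.5 and 54.3 CPM in oxaliplatin, 52.3, 63.9 and 61.4 CPM in sorafenib and 56.3, 49.8 and 52.6 CPM in untreated libraries, and all 3 groups overlapped. The lysosomal peptide transporter ABCB9 stood at 0.10 ± 0.19 in oxaliplatin against untreated. Exons of ABCB9 overlap OGFOD2, ARL6IP4 and another transcript on the opposite strand, so without a stated strand setting its counts are uncertain. ABCB6, a porphyrin transporter, had 2.34, 2.12 and 2.37 CPM in oxaliplatin and 1.94, 2.21 and 1.11 CPM in untreated libraries (0.38 ± 0.33, adjusted p = 0.403), and 54.7% of its merged exons are shared with the same-strand row AC068946.2.

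In subfamily D, the peroxisomal ABCD3 (ENSG00000117528, chr1:94418389-94518666), which imports branched-chain acyl-CoA and bile acid precursors, had 112, 118 and 98.6 CPM in oxaliplatin and 84.7, 77.1 and 90.7 CPM in untreated libraries (0.38 ± 0.11, adjusted p = 0.0253). The groups did not overlap, and its transcript is poor in G and C (37.62%). With the correction for G and C content and length the log2 fold change was -0.0020 (adjusted p = 0.987). The call also ended with no filter on low counts (0.0575) and without untreated 2 (0.103), oxaliplatin 1 (0.0838) or oxaliplatin 2 (0.0892), in a range of 0.0106 to 0.995. A replicate block ended it too, alone or with the correction (0.0673 and 0.995). ABCD4, which moves cobalamin out of lysosomes, was at 0.20 ± 0.13 (adjusted p = 0.25).

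Among the members without membrane domains, 0 of the 4 rows that could be compared were called in oxaliplatin by edgeR, and ABCF2 alone had an unadjusted p under 0.05 and was called by DESeq2. ABCE1 (ENSG00000164163, chr4:145098288-145129524), which splits ribosomes after termination, had 148, 153 and 127 CPM in oxaliplatin and 145, 169 and 179.9 CPM in untreated libraries (-0.21 ± 0.12, adjusted p = 0.225). With the correction for G and C content and length it was at -0.51 and was called lower (adjusted p = 0.00508, in a range of 0.00508 to 0.615). The main row of ABCF2 (ENSG00000033050, chr7:151211484-151227205) had 80.5, 89.8 and 80.5 CPM in oxaliplatin and 92.0, 106 and 111 CPM in untreated libraries. The groups did not overlap, but the log2 fold change of -0.30 ± 0.11 was not called (adjusted p = 0.053). DESeq2 called it (0.0386), as did the fit without untreated 1 (0.0236), in a range of 0.0236 to 0.222. A 2nd row carrying the symbol ABCF2 (ENSG00000285292, chr7:151207837-151227166), of which 87.6% of merged exons lie in the first, had 42, 2 and 47 counts in oxaliplatin, 72, 1 and 56 counts in sorafenib and 0 in each untreated library. It passed the filter through the drug libraries alone, so no test against untreated is read from it, and oxaliplatin 2 and sorafenib 2 had almost none of its counts. ABCF3 was at -0.29 ± 0.14 (adjusted p = 0.142), and ABCF1 had 0.434 to 1.76 CPM in oxaliplatin, 0.536 to 1.63 CPM in sorafenib and 1.22 to 2.23 CPM in untreated libraries.

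In cells adapted to sorafenib, 4 of the 28 tested members were higher than in untreated cells and 0 were lower, beside 4.8% of all genes called, 2.82% higher and 1.97% lower. They were ABCA2, ABCA3, ABCC1 and ABCC3. The members' median log2 fold change was 0.02 and that of all genes 0.00, and the sorafenib values lay all above the untreated ones for 7 members and all below for 0, against 15.5% and 14.3% of all genes (29.8% together). An unadjusted p under 0.05 was reached by 9 members, and DESeq2 called 6 higher and 0 lower. The 7, the 9 and the 6 again include the 2nd row of ABCF2. All 4 were in the longest class of tested genes, where 5.62% of all genes were higher. ABCA3 had 65.7, 69.7 and 67.0 CPM in sorafenib and 33.3, 33.4 and 32.7 CPM in untreated libraries, a log2 fold change of 1.03 ± 0.10 (adjusted p = 0.00147), with narrow and well separated groups. Its call held under all 18 alternatives. ABCC3 had 473, 506 and 474 CPM in sorafenib and 327, 234 and 232 CPM in untreated libraries (0.87 ± 0.14, adjusted p = 0.0109), again without overlap.

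ABCA2 had 31.4, 38.2 and 34.2 CPM in sorafenib and 25.5, 14.6 and 15.2 CPM in untreated libraries (0.91 ± 0.21, adjusted p = 0.0406). ABCC1 had 25.8, 41.2 and 36.5 CPM in sorafenib and 21.9, 13.3 and 18.0 CPM in untreated libraries (0.96 ± 0.23, adjusted p = 0.0465). In both, untreated 1 was nearest to the sorafenib values. These calls rest on few libraries. That of ABCA2 ended without untreated 2 or 3 (adjusted p = 0.145 and 0.132), oxaliplatin 1, 2 or 3 (0.0668, 0.0581 and 0.0509), sorafenib 2 or 3 (0.153 and 0.125) and in a fit of the 2 groups only (0.0815), in a range of 0.00233 to 0.153. That of ABCC1 ended without untreated 2 or 3 (0.156 and 0.132), oxaliplatin 1, 2 or 3 (0.0726, 0.0533 and 0.0565), sorafenib 2 or 3 (0.172 and 0.152) and in the fit of 2 groups (0.0776), in a range of 0.00384 to 0.172. A replicate block ended the calls of ABCA2 and ABCC1 (0.0813 and 0.105), also with the correction for G and C content and length (0.0609 and 0.0862). ABCC3 was not called without untreated 2 or 3 or sorafenib 2 (0.0519, 0.0527 and 0.0524), in a range of 3.25e-06 to 0.0527. The number of members higher was therefore 1 without untreated 2, untreated 3 or sorafenib 2, and 2 without sorafenib 3 or any one of the oxaliplatin libraries.

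The other pumps were not called in sorafenib. ABCC4 had 258, 299 and 309 CPM in sorafenib and 246, 185 and 185 CPM in untreated libraries (0.49 ± 0.14, adjusted p = 0.0645). Its groups did not overlap, and it was called by DESeq2 (0.0265) and without untreated 1 (0.016) or sorafenib 1 (0.0421), in a range of 0.016 to 0.217. ABCC2 had 162, 199 and 209 CPM in sorafenib and 181, 119 and 142 CPM in untreated libraries (0.37 ± 0.16, adjusted p = 0.187), and without untreated 1 it was called (0.0485, in a range of 0.0485 to 0.478). ABCC5 had 34.2, 43.9 and 41.7 CPM in sorafenib and 46.1, 34.2 and 38.0 CPM in untreated libraries (0.02 ± 0.14, adjusted p = 0.954), and ABCB1 88.5, 103 and 103 CPM in sorafenib and 146, 78.0 and 83.0 CPM in untreated libraries (-0.06 ± 0.21, adjusted p = 0.893). Both overlapped. Of the summed pump level per kilobase, ABCC3 made up 40.5, 37.7 and 35.7% in sorafenib libraries, and 28.9, 30.7 and 28.9% in untreated ones. ABCA1 (0.07 ± 0.16), ABCA12 (0.12 ± 0.28), ABCC9 (-0.12 ± 0.13) and ABCD3 (-0.04 ± 0.11), called in oxaliplatin, were not called in sorafenib, with adjusted p-values of 0.822, 0.821, 0.599 and 0.867. ABCB8 stood at -0.35 ± 0.14 (adjusted p = 0.159) and without untreated 1 was called lower (0.0402, in a range of 0.0402 to 0.396).

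Both comparisons share the untreated libraries, so the drugs were also set against each other. Of the 28 members, 5 were higher and 1 lower in oxaliplatin than in sorafenib, beside 10.3% of all genes called, 5.2% higher and 5.07% lower. All 5 were in the longest class of tested genes, where 8.82% of all genes were higher, against 1.97 to 5.98% in the other classes. The members' median log2 fold change was 0.07, against -0.01 over all genes, and 11 members lay above and 3 below without overlap, against 17.3% and 17.6% of all genes (34.9% together). ABCA12 had 27.3, 27.7 and 23.8 CPM in oxaliplatin and 4.24, 9.99 and 7.13 CPM in sorafenib libraries (1.88 ± 0.28, adjusted p = 0.00383). ABCA1 had 99.0, 108 and 90.2 CPM in oxaliplatin and 29.3, 43.5 and 40.7 CPM in sorafenib libraries (1.39 ± 0.16, adjusted p = 0.00104). These groups stood far apart, and the 2 calls held under all 18 alternatives. ABCC5 had 67.4, 63.3 and 67.2 CPM in oxaliplatin and 34.2, 43.9 and 41.7 CPM in sorafenib libraries (0.72 ± 0.14, adjusted p = 0.0127). It was not called without oxaliplatin 1 (0.0535, in a range of 0.000202 to 0.0535).

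ABCC9 had 47.1, 43.8 and 44.3 CPM in oxaliplatin and 27.0, 30.5 and 30.5 CPM in sorafenib libraries (0.62 ± 0.13, adjusted p = 0.019), and ABCD3 112, 118 and 98.6 CPM in oxaliplatin and 78.1, 81.6 and 86.3 CPM in sorafenib libraries (0.42 ± 0.11, adjusted p = 0.0384). ABCA3 was the one member lower in oxaliplatin, with 52.5, 47.2 and 52.0 CPM in oxaliplatin and 65.7, 69.7 and 67.0 CPM in sorafenib libraries (-0.42 ± 0.10, adjusted p = 0.0243). None of these 3 overlapped. The call of ABCC9 ended without oxaliplatin 1 or 2 (adjusted p = 0.0778 and 0.0533), sorafenib 1 or 3 (0.064 and 0.0545) and with the correction for G and C content and length (a log2 fold change of 0.40 and 0.0687), in a range of 0.00153 to 0.109. That of ABCD3 ended without untreated 3 (0.0544), oxaliplatin 1 or 2 (0.128 and 0.13), sorafenib 1, 2 or 3 (0.109, 0.0987 and 0.0808), with no filter (0.0718), with that correction (0.24 and 0.0699) and in a fit of 2 groups (0.0502), in a range of 0.0136 to 0.137. That of ABCA3 ended without oxaliplatin 1 or 2 (0.0746 and 0.0918), sorafenib 2 or 3 (0.0741 and 0.0735), with scaling by library size only (0.0544) and with no filter (0.0516), in a range of 0.00133 to 0.0918. A replicate block ended the calls of ABCD3 and ABCA3 (0.107 and 0.0834). With the block and the correction together, the calls of ABCC9, ABCD3 and ABCA3 ended (0.109, 0.137 and 0.0516). The number of members higher was 2 without oxaliplatin 1 and 3 without oxaliplatin 2, sorafenib 1 or sorafenib 3. ABCA7 (0.67 ± 0.19, adjusted p = 0.0531) was called by DESeq2 (0.0212), with scaling by library size (0.0433), with a minimum mean of 1 CPM (0.0473) and without sorafenib 2 (0.0261), in a range of 0.0212 to 0.158. ABCE1 (-0.23 ± 0.12, adjusted p = 0.248) was called lower with the correction (0.0316, in a range of 0.0316 to 0.474). ABCC1, ABCC2, ABCC3 and ABCC4 were at 0.12 ± 0.23, 0.33 ± 0.16, -0.24 ± 0.14 and 0.21 ± 0.14, with adjusted p-values of 0.777, 0.204, 0.284 and 0.353, so no difference between the drugs was shown for them.

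**Figure D5:**
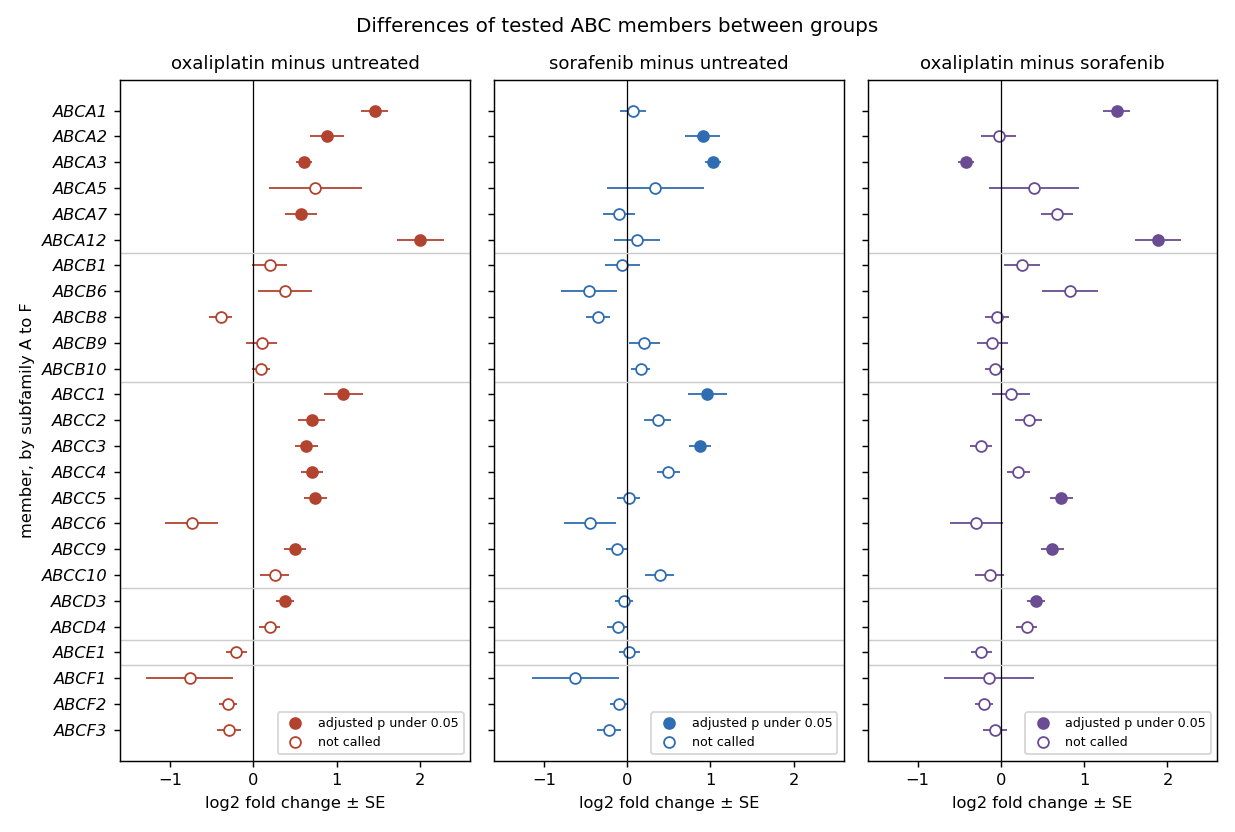
Log2 fold changes ± SE of the tested members reported here, without the 2nd row of ABCF2, by subfamily, for oxaliplatin minus untreated (left), sorafenib minus untreated (middle) and oxaliplatin minus sorafenib (right); filled points have an adjusted p under 0.05. In the left panel 12 members are filled, all to the right of 0, in the middle panel 4, and in the right panel 5 to the right and 1 to the left of 0.

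Genes that work with these transporters were read from lists drawn up with earlier results known. No list was tested against other genes, and its counts stand beside shares over all genes of 16.2% higher and 15.5% lower in oxaliplatin and 2.82% and 1.97% in sorafenib. Of 17 tested nuclear receptors and other regulators of transporter genes, 1 was called in each drug, and it was lower (median log2 fold changes 0.09 and -0.05). NR1H3, the gene of liver X receptor alpha, which activates ABCA1, had a mean of 3.21 CPM in oxaliplatin, 3.20 CPM in sorafenib and 5.37 CPM in untreated libraries (log2 fold changes -0.74 and -0.75, adjusted p = 0.0135 and 0.0471). AHR, the aryl hydrocarbon receptor gene, was at 0.47 and 0.43 (adjusted p = 0.0586 and 0.146) and KEAP1, the inhibitor of NRF2, at -0.43 and -0.95 (adjusted p = 0.221 and 0.063). Of 8 tested targets of liver X receptors other than ABC genes, 2 were higher and 2 lower in oxaliplatin and 1 higher in sorafenib. SMPDL3A, a phosphodiesterase gene, had a log2 fold change of 0.88 in oxaliplatin (adjusted p = 0.00246). The desaturase gene SCD had -0.50 in oxaliplatin and 0.50 in sorafenib (adjusted p = 0.0121 and 0.0431).

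Of 18 tested partner genes, such as scaffold, channel and ribosome factors, 5 were higher and 2 lower in oxaliplatin, and 0 were called by edgeR in sorafenib, where 3 had an unadjusted p under 0.05. EIF2AK4, the kinase gene GCN2, was at 0.63 in oxaliplatin, and ETF1, the release factor that acts before ABCE1, at -0.50 (adjusted p = 0.00382 and 0.00631). EZR, the gene of ezrin, which links membrane proteins to actin, was at -0.47 (adjusted p = 0.00742). Of 11 tested solute carriers of drugs and organic ions, 3 were higher and 1 lower in oxaliplatin, and 1 and 1 in sorafenib. SLCO4A1, an organic anion carrier, stood at 57.3 CPM in sorafenib and 18.8 CPM in untreated libraries (1.61, adjusted p = 0.000314). SLCO4C1, a kidney carrier of the same family, stood at 10.5 CPM in oxaliplatin and 3.22 CPM in untreated libraries (1.70, adjusted p = 0.00473). SLC22A3, a carrier of organic cations, fell by 0.93 on the log2 scale in oxaliplatin (adjusted p = 0.00193).

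Of 23 tested conjugating enzymes, 3 were higher and 4 lower in oxaliplatin, and 1 was called in sorafenib, which was lower. In oxaliplatin both counts lie near the shares over all genes, so they say nothing of this list. The glucuronosyltransferase genes UGT1A9 and UGT1A6, whose last exons are shared so that reads may be split between them, had log2 fold changes of 0.89 and 1.21 in oxaliplatin (adjusted p = 0.0178 and 0.00451), and UGT1A9 was the one lower in sorafenib (-1.05, adjusted p = 0.0379). The glutathione transferase gene MGST3 was at -0.60 (adjusted p = 0.00344). Of the ABC genes under other symbols, TAP1, a subunit of the peptide transporter of antigen presentation, and the chloride channel gene CFTR were not tested, TAP1 having 0 counts in all 9 libraries. Whether reads of TAP1 were lost in mapping was not examined. TAP2 stood at -0.06 in oxaliplatin and -0.29 in sorafenib (adjusted p = 0.891 and 0.528).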

How the data were processed

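Messenger RNA of 9 libraries had been sequenced, and the authors deposited raw counts per gene, made with featureCounts on GRCh38 per the submitters' processing notes, which also name DESeq2. The aligner, the annotation release, versions and the strand setting are not given in the sources used here. Groups came from the treatment label. Counts were tested with edgeR 4.0.16 in R 4.3.3 (TMM scaling, filterByExpr, robust quasi-likelihood test) in 1 model of 3 groups of 3 libraries, with Benjamini-Hochberg adjustment over 16159 genes and a call at an adjusted p under 0.05. CPM used TMM-scaled totals for display, and SE is the log2 fold change divided by the root of F. Length and G and C content came from GENCODE release 29. The test was checked on simulated counts of oxaliplatin against untreated, where 5 of 120 calls were false. It called 4 of 50 genes changed 1.5-fold, 27 of 50 changed 2-fold and 45 of 50 changed 4-fold, among 15843 genes. In the data 31.7% of genes were called, so the adjustment was less strict there and these rates do not carry over. A member not called may still differ by small amounts. Alternatives were DESeq2 1.42.0, other scalings and filters, and a correction for G and C content and length. Further ones were a block for the replicate number, alone or with that correction, fits of 2 groups and leaving out each library. Detailed values were given for the 7 pumps and the 2 members of each other subfamily with the smallest adjusted p, and up to 3 genes of each related list. The members and lists were chosen with earlier results of these data known. Same-numbered libraries did not deviate together (correlations -0.11 to 0.03). Values of some members and list genes are not reported here, though counts over the family and lists include them.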

Additional observations from a re-analysis of the deposited data

How the results depend on the processing

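Of the 12 members called higher in oxaliplatin against untreated, 9 were called under all 18 alternatives, as were 1 of 4 in sorafenib against untreated and 2 of 6 between the drugs. Members lower in oxaliplatin than in untreated numbered 2 with DESeq2, and 1 with the correction for G and C content and length, with or without the replicate block. Fitting 2 groups only left 2 members higher in sorafenib. Between the drugs, 0 members were lower in oxaliplatin with library size scaling, with no filter, with the replicate block and with the correction plus block, while the correction gave 2 lower and, with or without the block, 3 higher. Leaving out 1 library gave 9 to 13 higher and 0 to 2 lower in oxaliplatin against untreated, 1 to 6 and 0 to 1 in sorafenib against untreated, and 2 to 5 and 0 to 1 between the drugs. The library numbers do not pair the samples, and with the replicate block 11, 3 and 4 members were higher, the 11 and the 3 including the 2nd row of ABCF2. Among called members, directions turned for ABCD3 and ABCC9 in oxaliplatin with the correction (-0.0020 and -0.0285; with the replicate block -9e-04 and -0.0245). Among uncalled members, directions turned under some alternative for 2 of 16 in oxaliplatin, 10 of 24 in sorafenib and 8 of 22 between the drugs. With the correction, ABCB9 turned in oxaliplatin (-0.07) and ABCA1, ABCA12 and ABCE1 in sorafenib (-0.18, -0.11 and -0.14), and ABCA7 turned in sorafenib without sorafenib 3 (0.03). ABCC5 turned in sorafenib (-0.1509, with the replicate block -0.1477; -0.0748 to 0.1434 over fits without 1 library, negative without untreated 2, untreated 3, sorafenib 2 or sorafenib 3). Without 1 library, ABCB1 in sorafenib ranged from -0.2207 to 0.283 (positive without untreated 1 or sorafenib 1) and ABCC1 between the drugs from -0.058 (without sorafenib 1) to 0.2676. The cause was not tested. Library size scaling moved the median of all genes to 0.13 in oxaliplatin against untreated, where it gave 3395 genes higher and 1794 lower against 2619 and 2504. Genes called in sorafenib, 456 higher and 319 lower, numbered 992 and 804 with DESeq2, 187 and 124 with 2 groups and 120 and 64 with the replicate block. Members under about 1 CPM, such as ABCG2, are limited by depth.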
